A study of Homo sapiens with 12 samples.

Results

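Fibronectin, a large glycoprotein of the extracellular matrix, is encoded by a single human gene, FN1. FN1 (ENSG00000115414) is 1 of the 60612 genes in the deposited gene table, and the 27 transcripts listed in its row are among the 229420 transcripts in the deposited transcript table. The cells were LX2, an established line of human hepatic stellate cells that the labels give as wild type. All libraries came from cells starved of serum for 16 h, starting 24 h after seeding. In the group STINGX with TGFb, the compound with the code name STINGX was given at 10 µM for 3 h before TGFb at 5 ng/ml. In the group TGFb, cells received 5 ng/ml of TGFb for 16 h without the compound. Control cells were left untreated. Each group had 4 polyadenylated RNA libraries, 12 in all, and no group received STINGX alone. The title of the series places it in work on mitochondrial DNA and the STING pathway, a sensor of DNA in the cytosol, during stellate cell activation.

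Fibronectin is secreted as a dimer and assembled into fibrils at the cell surface by integrins, chiefly the pair made by ITGA5 and ITGB1, which grips its RGD loop. Collagen and other matrix proteins are then laid down on these fibrils. One gene gives many proteins because 3 regions of the messenger are spliced in variable ways. EDA and EDB are single exons, each coding for a whole type III repeat, and the V region (also called IIICS) can be kept whole, trimmed or left out. Hepatocytes make plasma fibronectin, which lacks EDA and EDB. Fibroblasts and activated stellate cells make cellular fibronectin, part of which carries them.

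FN1 lies on chromosome 2 of GRCh38 on the minus strand, from 215360440 to 215436073 in the deposited table. The exon content of each transcript was read from GENCODE 29 by transcript identifier, and all 27 identifiers were found there. The sequences of the variable regions are shown because the transcripts differ by them. They are written 5′ to 3′ on the transcript strand and come from the GENCODE 29 transcripts. The EDB exon (chr2:215392931-215393203, minus strand) has 273 bases and codes for 91 residues. Its capitals mark the 217 bases that also belong to FN1-213, a shorter transcript that starts inside this exon:
EDB exon: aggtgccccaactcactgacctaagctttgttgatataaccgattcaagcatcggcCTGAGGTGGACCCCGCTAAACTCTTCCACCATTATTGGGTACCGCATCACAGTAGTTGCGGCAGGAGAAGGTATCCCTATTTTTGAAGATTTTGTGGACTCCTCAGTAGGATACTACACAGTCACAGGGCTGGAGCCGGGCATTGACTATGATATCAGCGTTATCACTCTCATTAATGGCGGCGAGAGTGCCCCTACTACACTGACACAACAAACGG
The EDA exon (chr2:215380811-215381080, minus strand) has 270 bases and codes for 90 residues. Its capitals mark GAAGAAGA, a purine-rich stretch known as a splicing enhancer of this exon and bound by SR proteins such as SRSF1:
EDA exon: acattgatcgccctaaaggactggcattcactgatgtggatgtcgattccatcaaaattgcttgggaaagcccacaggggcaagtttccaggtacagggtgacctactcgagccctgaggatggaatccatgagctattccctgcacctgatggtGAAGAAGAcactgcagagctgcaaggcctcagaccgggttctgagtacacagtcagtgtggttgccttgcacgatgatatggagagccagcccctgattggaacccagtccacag
The V region (chr2:215372016-215372375, minus strand) has 360 bases and codes for 120 residues when whole. Its first 75 bases (chr2:215372301-215372375) are missing from the forms of 64 residues and from those without V, and the capitals mark the Leu-Asp-Val codons, the core of the site that the integrin of ITGA4 and ITGB1 binds:
First part of V: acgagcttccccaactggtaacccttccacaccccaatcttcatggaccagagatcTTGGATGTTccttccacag
The motif GAAGAAGA was searched on the transcript strand only. It occurs 1 time in the EDA exon, from position 156, and 0 times in the EDB exon. Of 4172 internal exons of coding transcripts within 20 bases of the length of EDA, 125 (3.0%) hold it. The match is a description of the letters and was not set against any binding data.

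Library totals ran from 58174812 to 70787741 counts with STINGX and TGFb, from 54035320 to 63193549 with TGFb and from 64151449 to 66738764 in control. Of 14 stellate cell and fibroblast markers, 12 reached 1 CPM (the count scaled to a common library total), whereas DES and LRAT were at 0 in all 12 libraries. Their summed level was 5220 to 5700 CPM with STINGX and TGFb, 10700 to 11100 CPM with TGFb and 6440 to 6540 CPM in control. Most of it was COL1A1, at 1640, 6370 and 2310 CPM in these groups, and VIM, at 3010, 2980 and 2950 CPM. COL1A2, PDGFRB, ACTA2 and TAGLN were also higher with TGFb than in control, whereas COL3A1, THY1, LUM, HAND2, DCN and RGS5 were lower. Of 9 hepatocyte markers 1 reached 1 CPM (SERPINA1), and 4 (ALB, APOB, TTR and FGB) were at 0 in all libraries. Their sum was 3.84 to 4.02 CPM with STINGX and TGFb, 5.05 to 6.39 CPM with TGFb and 7.99 to 10.5 CPM in control. Macrophage and leukocyte markers reached 1 CPM for 3 of 7, with PTPRC below it and AIF1 at 0 throughout, and summed to 74.6 to 90.1 CPM, 30.0 to 35.3 CPM and 72.8 to 80.6 CPM in the same 3 groups. Endothelial markers reached 1 CPM for 3 of 7, with sums of 10.9 to 13.7, 13.8 to 15 and 10.9 to 12.1 CPM in these groups. Epithelial and cholangiocyte markers reached it for 2 of 5. Their sums were 29.4 to 30.7 CPM with STINGX and TGFb, 56.7 to 65.1 CPM with TGFb and 44.7 to 48.8 CPM in control, so that this sum too was highest with TGFb. KRT7 averaged 9.79, 29.4 and 14.8 CPM in the same groups and SOX9 20.5, 30.8 and 31.5 CPM. The part of these marker sets in the FN1 values was not tested. Nothing in the labels states that the libraries of a group were grown as separate cultures. The p-values therefore reflect the spread between libraries, which may be technical only.

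FN1 was much higher with TGFb than in control, and lower with STINGX and TGFb than with TGFb, where it still lay above control. Scaled by the trimmed mean of M-values (TMM), FN1 stood at 6543, 6363, 6453 and 6487 CPM in the 4 libraries with STINGX and TGFb. It stood at 15020, 14940, 15108 and 14965 CPM in the 4 libraries with TGFb. In the 4 control libraries it stood at 2137, 2127, 2081 and 2061 CPM. The groups were far apart, and no library of one group came near those of another. The spread within groups was small, with a coefficient of variation of 1.17% with STINGX and TGFb, 0.495% with TGFb and 1.73% in control. These are levels per total RNA of a bulk sample, so fewer cells that make FN1 and less FN1 RNA per cell cannot be told apart.

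**Figure D1:**
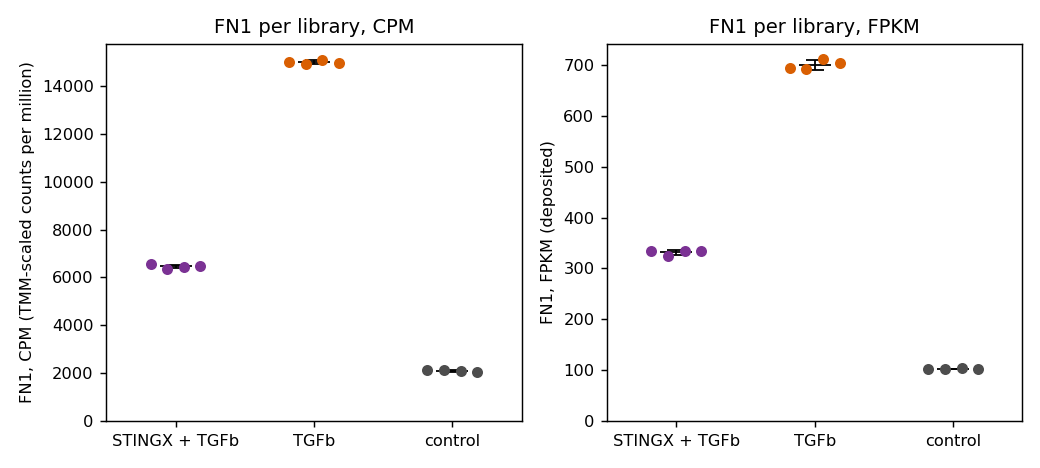
FN1 in each of the 12 libraries as TMM-scaled CPM (left) and as the deposited FPKM (right), with points for libraries, a bar for the mean and whiskers for 1 SD (n = 4 per group). The libraries with STINGX and TGFb sit between 6363 and 6543 CPM, below all libraries with TGFb and above all control libraries.

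TGFb raised FN1 7.14-fold over control (log2 fold change 2.84 ± 0.023 SE, edgeR quasi-likelihood test, adjusted p = 5.77e-16). In that comparison edgeR called 26% of the 21328 genes tested, 13.2% higher and 12.8% lower with TGFb, and the median log2 change over all genes was -0.00401. FN1 had the smallest p of all genes tested, rank 1, and the 168th largest rise. A two-sided exact permutation test of the libraries gave p = 0.0286, the smallest that 4 against 4 can reach, for this and each of the next 2 comparisons.

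FN1 with STINGX and TGFb was 0.431 of its level with TGFb (log2 fold change -1.22 ± 0.022 SE, edgeR adjusted p = 1.47e-12). Here edgeR called 27.5% of genes, 13.7% higher and 13.8% lower with STINGX and TGFb, around a median log2 change of 0.00627. FN1 ranked 6 by p and had the 900th largest fall. Scaled by library size alone, the median log2 change of all genes in this comparison was 0.15, and the calls split into 4997 higher and 1890 lower, against 2931 higher and 2933 lower with TMM. The log2 change of FN1 was then -1.08.

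FN1 with STINGX and TGFb remained 3.07-fold above control (log2 fold change 1.62 ± 0.022 SE, edgeR adjusted p = 3.07e-13). In this comparison 34.2% of genes were called, 17.2% higher and 17% lower, around a median of 0.00425, and FN1 again had rank 1 by p with the 436th largest rise. Library size alone moved the split of all calls to 4683 higher and 2876 lower with STINGX and TGFb, against 3670 and 3626 with TMM. For TGFb and control it gave 2224 higher and 3523 lower, against 2813 and 2730 with TMM. The distance from control was 4360 CPM with STINGX and TGFb and 12910 CPM with TGFb. The share of the increment still present with STINGX was thus 33.8% ± 0.323 (SE) on the CPM scale. On the deposited FPKM scale it was 38.4% ± 0.501 (SE).

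The same order held for the deposited FPKM, which divides by length and has no TMM scaling. FN1 averaged 331.7 ± 4.88 FPKM with STINGX and TGFb, 700.1 ± 8.97 FPKM with TGFb and 102.2 ± 0.83 FPKM in control (SD, n = 4 each). The ratios of these means were 6.85 for TGFb over control, 0.474 for STINGX and TGFb over TGFb, and 3.25 for STINGX and TGFb over control. Among all genes by FPKM, FN1 ranked 54 to 56 with STINGX and TGFb, 24 to 27 with TGFb and 236 to 278 in control. It took 0.679% ± 0.00984 of all counts with STINGX and TGFb, 1.43% ± 0.0204 with TGFb and 0.209% ± 0.00155 in control (SD, n = 4 each).

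No gene in the deposited coordinates overlaps FN1. Its nearest neighbour at the start, AC012462, lies 179 bases away on the other strand and had counts of 0 to 3 with STINGX and TGFb, 0 to 4 with TGFb and 0 in control, too few to test. ATIC, an enzyme of purine synthesis 10676 bases beyond the end of FN1, averaged 103.7 ± 5.09 CPM with STINGX and TGFb, 101.0 ± 1.58 CPM with TGFb and 91.7 ± 4.19 CPM in control (SD, n = 4 each). Its log2 changes in edgeR were 0.14 for TGFb over control (adjusted p = 0.0439), 0.04 for STINGX and TGFb over TGFb (adjusted p = 0.604) and 0.18 for STINGX and TGFb over control (adjusted p = 0.0102).

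The 27 transcripts of FN1 fall into kinds by their annotation. Of these, 10 are coding transcripts that run from the first to the last part of the gene, called end-to-end here. A further 3 are coding but cover part of the gene, 13 are retained-intron transcripts and 1 is a processed transcript. Among the end-to-end transcripts 5 include EDA, 3 include EDB and 2 include both. The V region is whole (120 residues) in 3, trimmed to 89 residues in 3 and to 64 residues in 2, and absent in 2. A long 3′ end is present in 6 of them. After the filter on low counts, 24 of the 27 transcripts were tested. The 3 others were FN1-217 with 4 to 15 counts, FN1-221 with 5 counts in every library and FN1-223 with 0 to 19 counts.

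The transcript values were far less repeatable than the gene total, and 1 library stood apart. The transcripts share most of their exons, so their counts rest on how the authors' software divided shared reads. Over the 11 transcripts with a mean share of at least 1% of FN1 counts in any group, the coefficient of variation between replicates had a median of 53.0% with STINGX and TGFb, 9.93% with TGFb and 58.5% in control. In STINGX with TGFb replicate 1, FN1-204 held 8.82% of the FN1 counts, whereas it held 52.3 to 53.7% in the other 3 replicates. Summed over all FN1 transcripts, 44.8% of the counts in that replicate sat on other transcripts than in the mean division of the other 3 libraries of its group. The same measure was 14.1 to 16.1% for those other 3, whose reference included replicate 1, 0.922 to 2.5% with TGFb and 11.1 to 13.4% in control. Over 2786 genes with a mean count of at least 5000, the median gene had a shift of 6.10% in that replicate, and 6.75% of these genes shifted more than FN1. The cause was not tested.

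Control libraries also divided in their estimates. FN1-201, which carries both EDA and EDB, had 8210, 62, 55 and 9461 counts in control replicates 1 to 4, and FN1-202 had 6639, 10, 8 and 7078. FN1-203, FN1-205, FN1-207 and FN1-210 were likewise near 0 in control replicates 2 and 3 and well above it in the other two. FN1-209, with EDB and no V region, had 124, 2050, 2092 and 264 counts, high in the libraries where the others were low. The gene totals of these same 4 control libraries lay between 2061 and 2137 CPM.

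**Figure D2:**
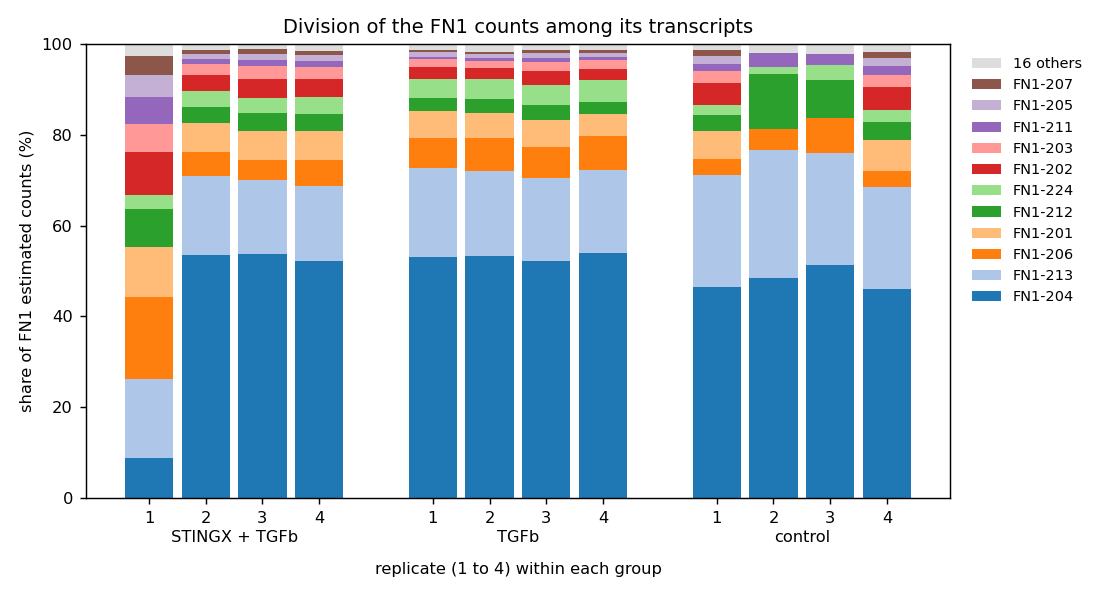
Share of the FN1 estimated counts held by each of 11 transcripts and by the 16 others together, in percent, as stacked bars for each library. FN1-204 fills 8.82% of the bar of STINGX with TGFb replicate 1 and between 46.0% and 53.9% of every other bar.

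FN1-204 was the most abundant transcript outside that library. It codes for an end-to-end fibronectin with neither EDA nor EDB and with a whole V region. It had 42101, 252282, 213275 and 232933 counts with STINGX and TGFb and 477142, 465026, 411100 and 419234 counts with TGFb. Control libraries had 62066, 66245, 70962 and 63984 counts. All TGFb libraries were above all control libraries, whereas the counts with STINGX and TGFb reached below those of control in 1 library and above them in 3. Its level rose with TGFb over control (log2 fold change 2.91 ± 0.43 SE, edgeR adjusted p = 0.00403). With STINGX and TGFb against TGFb the estimate was -1.51 ± 0.41 SE and did not pass (edgeR adjusted p = 0.0972). Without STINGX with TGFb replicate 1 it was -1.17 ± 0.037 SE and passed (edgeR adjusted p = 3.35e-07), close to the -1.22 of the gene. Against control it was 1.40 ± 0.40 SE with that library (edgeR adjusted p = 0.1) and 1.73 ± 0.036 SE without it (adjusted p = 6.44e-08). For TGFb over control limma-voom gave the same size with a wider error (log2 2.92 ± 0.91 SE) and did not call it (adjusted p = 0.182).

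FN1-213 was next, with a share of 16.9% ± 0.486 with STINGX and TGFb, 18.8% ± 0.604 with TGFb and 25.1% ± 2.33 in control (SD, n = 4 each). It lacks the 5′ part of the messenger and starts inside the EDB exon. Its counts were 82743, 81207, 65055 and 73601 with STINGX and TGFb and 176711, 165103, 144395 and 143235 with TGFb. Control libraries held 33110, 38513, 34205 and 31331. The groups did not overlap, and STINGX with TGFb replicate 1 was not set apart here. Its level passed in every comparison, at log2 2.35 ± 0.078 SE for TGFb over control (edgeR adjusted p = 5.15e-08), -1.33 ± 0.076 SE for STINGX and TGFb over TGFb (adjusted p = 4.24e-06) and 1.02 ± 0.075 SE for STINGX and TGFb over control (adjusted p = 2.49e-05).

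FN1-224, a retained-intron transcript over the 3′ part of the gene, held 3.38% ± 0.256 of FN1 counts with STINGX and TGFb, 4.5% ± 0.230 with TGFb and 2.35% ± 0.683 in control. It had 14714, 16292, 13066 and 16404 counts with STINGX and TGFb and 39134, 38684, 34712 and 37678 counts with TGFb. Control libraries had 2782, 2170, 4415 and 3537 counts, below all others. Its level also passed in every comparison, at log2 3.72 ± 0.16 SE, -1.59 ± 0.15 SE and 2.13 ± 0.15 SE in the same order as for FN1-213 (edgeR adjusted p = 4.24e-07, 0.000187 and 1.90e-05).

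Of the end-to-end transcripts with EDA, FN1-206 keeps a whole V region. It held 18.1% of FN1 counts in STINGX with TGFb replicate 1 and 4.28 to 5.67% in the other 3, 6.79 to 7.46% with TGFb and 3.49 to 7.62% in control. Its level rose with TGFb over control (log2 3.33 ± 0.46 SE, edgeR adjusted p = 0.00267) and was above control with STINGX and TGFb (2.41 ± 0.44 SE, adjusted p = 0.0128), although this second result was lost with limma-voom (adjusted p = 0.125) and with the replicate block (0.0676). With STINGX and TGFb against TGFb it did not pass (-0.92 ± 0.42 SE, edgeR adjusted p = 0.374), but did without STINGX with TGFb replicate 1 (-1.65 ± 0.24 SE, adjusted p = 0.00768). FN1-212, with EDA and a V region of 64 residues, averaged 4.95%, 2.90% and 7.02% of FN1 counts with STINGX and TGFb, with TGFb and in control, and passed in no comparison in edgeR. Its estimate for TGFb over control was 1.49 ± 0.40 SE (adjusted p = 0.0997), and it passed with DESeq2 (adjusted p = 0.0204) and without control replicate 2 (1.92 ± 0.37 SE, edgeR adjusted p = 0.0348). FN1-201 averaged 7.51%, 5.58% and 3.26%, FN1-202 5.36%, 2.67% and 2.52%, and FN1-203 3.45%, 1.80% and 1.28% in the same 3 groups. The level of none of these 3 passed in edgeR in any comparison, with standard errors of 1.16 to 1.47 on the log2 scale. For TGFb over control FN1-201 passed with DESeq2 (adjusted p = 0.038) and limma-voom (0.0358).

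Of the named end-to-end transcripts without EDA, FN1-211 has a V region of 89 residues, FN1-207 one of 64 and FN1-205 none. FN1-211 had 28819, 5724, 5838 and 5822 counts with STINGX and TGFb, 5424, 5399, 5906 and 4987 with TGFb, and 2291, 4311, 3417 and 2647 in control. Its counts with STINGX and TGFb were thus close to those with TGFb in 3 libraries and far above them in replicate 1. Without that library FN1-211 was higher with TGFb than in control (log2 0.94 ± 0.18 SE, edgeR adjusted p = 0.0342). With all libraries, the level of FN1-211, FN1-207 and FN1-205 passed in no comparison in edgeR, and their log2 estimates for STINGX and TGFb over TGFb were 0.78 ± 0.48 SE, 0.54 ± 1.34 SE and -0.07 ± 1.32 SE.

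Over all 24 transcripts tested, 12 were higher with TGFb than in control and 0 lower in edgeR, where 2.33% of 79677 transcripts were called, 1.17% in each direction. These were 2 of the 10 end-to-end transcripts, 2 of the 3 other coding ones and 8 of the 11 retained-intron ones tested. The median log2 change of the 24 was 2.80, that of all transcripts tested -0.00855, and 23 of the 24 estimates were positive. The groups did not overlap for 22, all higher with TGFb, as for 9.15% of all transcripts tested (4.43% higher, 4.72% lower). At an unadjusted p under 0.05, 18 were higher and 1 lower, and DESeq2 and limma-voom called 15 and 13 higher and 0 lower. Of all 79677 transcripts, DESeq2 called 5224 and limma-voom 1764 there, against 1860 with edgeR. The share of all transcripts at the unadjusted threshold is not given, here or below. Against TGFb, 0 of the 24 were higher and 6 lower with STINGX and TGFb. In that comparison 2.4% of all transcripts were called, 1.12% higher and 1.29% lower. Of these 6, 5 were retained-intron transcripts and 1 was FN1-213, and 0 of the 10 end-to-end transcripts passed. At an unadjusted p under 0.05, 0 were higher and 12 lower, and DESeq2 and limma-voom called 0 higher and 10 and 9 lower. Over the whole table DESeq2 called 5409 transcripts, limma-voom 1880 and edgeR 1916. The median of the 24 was -0.88, against 0.03 over all transcripts, and the groups did not overlap for 12, all lower, as for 11.3% of all transcripts tested (5.86% higher, 5.41% lower). Against control, 9 were higher and 0 lower with STINGX and TGFb, where 3.45% of all were called, 1.6% higher and 1.85% lower. The 9 were 1 end-to-end, 2 other coding and 6 retained-intron transcripts. At an unadjusted p under 0.05, 17 were higher and 1 lower, and DESeq2 and limma-voom called 12 and 9 higher and 0 lower, whereas edgeR with the replicate block called 5. Calls over the whole table were 6730 with DESeq2, 2804 with limma-voom and 1632 with the replicate block, against 2751 without it. The median of the 24 was 1.71, against 0.02 over all transcripts. The groups did not overlap for 19, all higher, as for 12.2% of all transcripts tested (6.23% higher, 5.93% lower).

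**Figure D3:**
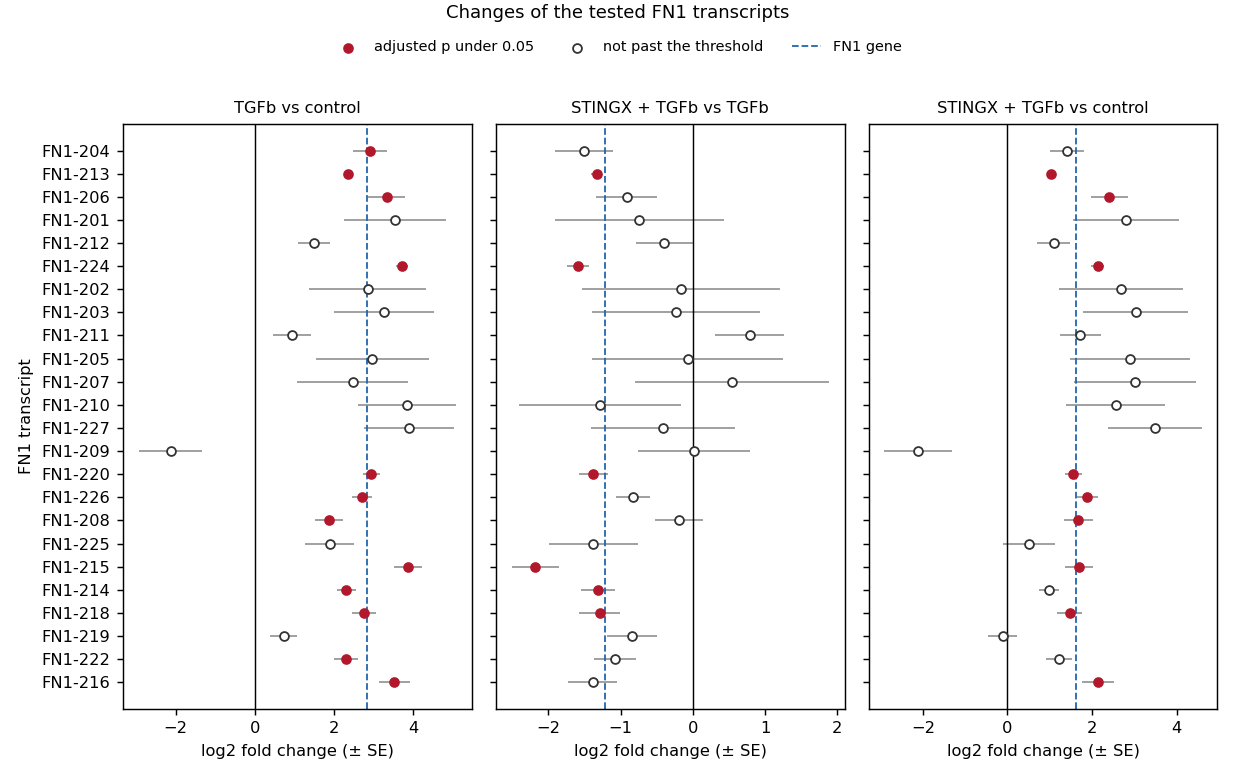
Log2 fold change of each of the 24 tested FN1 transcripts in 3 comparisons, with whiskers for 1 SE, filled points for an edgeR adjusted p under 0.05 and a dashed line for the FN1 gene. The gene stands at 2.84, -1.22 and 1.62 from the left panel to the right, and 12, 6 and 9 transcripts are filled.

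Retained-intron transcripts below 1% of FN1 had low counts and differed in how well the libraries agreed. The coefficient of variation with STINGX and TGFb, with TGFb and in control was 20.8%, 8.57% and 46.6% for FN1-215. It was 5.41%, 8.61% and 19.0% for FN1-220 and 161%, 111% and 28.5% for FN1-227. The call of FN1-218 against TGFb (edgeR adjusted p = 0.0426) was lost when any 1 library with TGFb, or with STINGX and TGFb, was left out. FN1-215 lies over the V region and had 106 to 159 counts with STINGX and TGFb, 421 to 513 with TGFb and 18 to 52 in control. It had the lowest estimate of all 24 for STINGX and TGFb over TGFb, -2.18 ± 0.33 SE (edgeR adjusted p = 0.00482), and was singled out after its values were seen. FN1-220, also chosen after its values were seen, had 273 to 341, 551 to 756 and 64 to 110 counts in the same 3 groups. Together the retained-intron transcripts held 4.0% ± 0.358 of FN1 counts with STINGX and TGFb, 5.03% ± 0.253 with TGFb and 2.85% ± 0.684 in control (SD, n = 4 each). All TGFb libraries, at 4.77 to 5.25%, were above those with STINGX and TGFb, at 3.65 to 4.48%, and above control, at 2.06 to 3.67%. FN1-224 alone held 3.38%, 4.5% and 2.35% in the same 3 groups, most of this sum. With counts divided by transcript length, STINGX with TGFb replicate 1 stood at 7.77%, above the TGFb libraries at 6.21 to 7.12%, so these groups then overlapped.

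Whether a transcript changed relative to the other transcripts of its gene was tested with diffSpliceDGE in edgeR over 70977 transcripts. With TGFb against control 1.22% of these were called, 0.61% higher and 0.606% lower, and 1 FN1 transcript was among them. FN1-209 was lower in usage with TGFb (log2 -3.39, adjusted p = 0.0128), with 178, 163, 176 and 389 counts with TGFb and the divided control counts given above. It was named because it was the only call, and the call was lost with the replicate block and without TGFb replicate 1, 2 or 3, which left 0 calls. Its level did not pass (log2 -2.13 ± 0.80 SE, edgeR adjusted p = 0.256), the groups overlapped in level, and it held 0.0277% of FN1 counts with TGFb and 0.824% in control. Between STINGX with TGFb and TGFb, 0.992% of transcripts were called, 0.652% higher and 0.34% lower, and no FN1 transcript was. Between STINGX with TGFb and control, 1.04% were called, 0.7% higher and 0.337% lower, again without an FN1 transcript. At an unadjusted p under 0.05 these last comparisons had 2 FN1 transcripts higher against TGFb and 1 lower against control, and limma diffSplice called 1 lower against TGFb and 0 against control. For TGFb and control, 0 FN1 transcripts were higher and 2 lower at an unadjusted p, and limma diffSplice called 0. Of all 70977 transcripts, limma diffSplice called 576 for TGFb and control. It called 740 for STINGX with TGFb and TGFb, and 1115 for STINGX with TGFb and control.

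The variable regions were then summed over the 10 end-to-end transcripts, which held 78.2% ± 0.912 of FN1 counts with STINGX and TGFb, 75.2% ± 0.516 with TGFb and 71.6% ± 1.51 in control (SD, n = 4 each). FN1-213, which spans the places of EDA and V, is outside these sums. It held 16.9%, 18.8% and 25.1% of FN1 counts in the same 3 groups. The shares below are therefore not the whole EDA or V content of FN1. Transcripts with EDA made up 69.0, 27.2, 27.3 and 28.6% of the end-to-end counts with STINGX and TGFb. They made up 26.4, 26.4, 28.1 and 25.6% with TGFb and 28.8, 23.8, 22.6 and 30.2% in control. The groups overlapped, and the values of TGFb lay within those of control. Without STINGX with TGFb replicate 1, the mean with STINGX and TGFb was 27.7% ± 0.809 (SD, n = 3), against 26.6% ± 1.03 with TGFb and 26.3% ± 3.69 in control (SD, n = 4 each). The difference of TGFb from control was 0.267 points (two-sided exact permutation p = 0.914).

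The level of end-to-end transcripts with EDA was 1368 to 3548 CPM with STINGX and TGFb, 2822 to 3140 CPM with TGFb and 336.6 to 466.8 CPM in control. The highest value with STINGX and TGFb was that of replicate 1, which exceeded every TGFb library although its gene total did not. End-to-end transcripts with EDB stood at 553.5 to 1147 CPM with STINGX and TGFb, 1016 to 1186 CPM with TGFb and 32.7 to 200.1 CPM in control. FN1-213, which starts inside the EDB exon, is not in these sums. It averaged 1105 CPM with STINGX and TGFb, 2773 CPM with TGFb and 543.9 CPM in control. The sums are therefore not the whole EDB content of FN1.

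EDB was included in 22.3, 11, 11.6 and 11.6% of end-to-end counts with STINGX and TGFb and in 10.0, 9.56, 10.6 and 9.22% with TGFb. Control libraries had 12.1, 2.24, 2.20 and 13.1%, on both sides of the TGFb values. STINGX with TGFb lay above TGFb in all 4 libraries, by 4.27 points in the mean (exact permutation p = 0.0286, adjusted p = 0.0686). Without replicate 1 the mean was 11.4% ± 0.348 (SD, n = 3), against 9.85% ± 0.595 with TGFb (SD, n = 4), and the values still did not overlap. All these EDB shares leave out FN1-213, which holds part of the EDB exon. It had 16.9% of FN1 counts with STINGX and TGFb, 18.8% with TGFb and 25.1% in control. The order of the groups in the whole EDB content of FN1 is therefore not given by these shares.

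The whole V region was kept in 42.8, 78.7, 76.5 and 77.4% of end-to-end counts with STINGX and TGFb, in 82.2, 82.4, 80.3 and 84.0% with TGFb and in 72.9, 76.1, 82.5 and 71.2% in control. Every library with STINGX and TGFb was below every TGFb library, and control overlapped both. Without replicate 1 the mean with STINGX and TGFb was 77.5% ± 1.09 (SD, n = 3), against 82.2% ± 1.50 with TGFb (SD, n = 4). The first part of V, with the Leu-Asp-Val codons printed above, was included in 77.4, 92.9, 91.8 and 92.2% with STINGX and TGFb. It was included in 94.3, 94.2, 93.3 and 94.5% with TGFb and in 90.7, 80.7, 86.0 and 90.0% in control. The TGFb libraries were the highest, above control by 7.23 points in the mean, and the difference of STINGX with TGFb from TGFb was -5.49 points (exact permutation p = 0.0286 and adjusted p = 0.0686 for each). Forms without any V region made up 1.47 to 6.2% with STINGX and TGFb, 1.25 to 1.54% with TGFb and 2.12 to 2.75% in control.

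**Figure D4:**
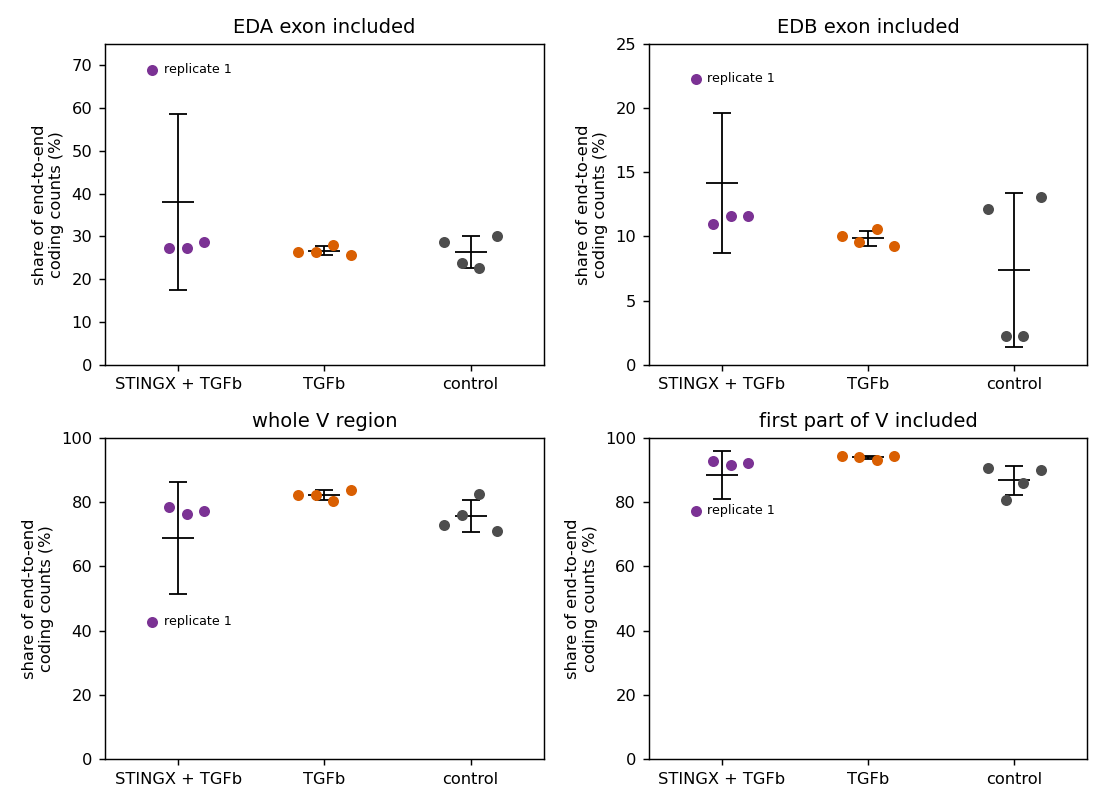
Percent of end-to-end FN1 counts on transcripts with the EDA exon, the EDB exon, the whole V region or the first part of V, with points for libraries, a bar for the mean and whiskers for 1 SD (n = 4 per group). STINGX with TGFb replicate 1 lies apart at 69.0% for EDA, 22.3% for EDB, 42.8% for the whole V region and 77.4% for its first part.

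The long 3′ end was carried by 25 to 69.7% of end-to-end counts with STINGX and TGFb, 24.2 to 26.1% with TGFb and 6.64 to 29% in control. In the annotation it comes with particular combinations of EDA, EDB and V, so its share is not independent of theirs. In all, 60 shares were compared between groups, for 11 transcripts and 9 sums of transcripts in 3 comparisons. The exact permutation test could not go below p = 0.0286, so after adjustment over 60 tests no single share could pass by itself, whatever its size. None reached an adjusted p under 0.05 in this test, where the smallest adjusted p was 0.0686, and 25 were at the smallest unadjusted p of 0.0286. Those 25 were 9 of TGFb with control, 14 of STINGX and TGFb with TGFb, and 2 of STINGX and TGFb with control. They are the shares whose groups did not overlap, and the matching count over all genes was not taken. With counts divided by transcript length they were 23, with 9, 12 and 2 in these comparisons. The 60 are not separate, because the sums are made of the same transcripts and the shares of a library add up to a fixed total. The 95% Wilson interval of a transcript share reached at most 0.267 points to either side, which covers counting error only.

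The 6 gene lists that follow were chosen with earlier results of these data known, so their shares called are descriptions only. The share of all genes called also depends on the filter. Of 15596 genes that passed a filter of 1 CPM, edgeR called 5362 for TGFb against control. It called 5751 for STINGX and TGFb against TGFb, and 6946 against control. Receptors that hold fibronectin at the cell surface were measured as a list of 18 integrins, syndecans and related proteins, of which 17 were tested. With TGFb against control 9 rose and 3 fell in edgeR (70.6% of the list, against 26% of all genes), at a median log2 change of 0.34. With STINGX and TGFb against TGFb 1 rose and 10 fell (64.7%, against 27.5% of all genes), at a median of -0.76. With STINGX and TGFb against control 4 rose and 6 fell (58.8%, against 34.2% of all genes), at -0.10. ITGB1, the beta chain of the fibronectin receptor, averaged 1324 ± 27.3 CPM with STINGX and TGFb, 2897 ± 154 CPM with TGFb and 1633 ± 76.6 CPM in control (SD, n = 4 each). Its partner ITGA5 averaged 413.2 ± 19.3, 864.0 ± 47.9 and 442.9 ± 24.8 CPM. Against control with STINGX and TGFb, ITGB1 was lower (log2 -0.30, edgeR adjusted p = 0.000122) and ITGA5 did not pass (-0.10, adjusted p = 0.167), whereas FN1 was higher. ITGB3, which pairs with ITGAV, was the 1 that rose with STINGX and TGFb over TGFb (log2 0.54, edgeR adjusted p = 5.64e-06).

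Matrix proteins that bind to fibronectin or are laid down with it were 18, all tested. With TGFb against control 13 rose and 3 fell (median log2 0.69), with STINGX and TGFb against TGFb 1 rose and 13 fell (-0.99), and with STINGX and TGFb against control 6 rose and 12 fell (-0.40). In these 3 comparisons 88.9%, 77.8% and 100% of the list were called, against 26%, 27.5% and 34.2% of all genes. With members chosen after earlier results were known, this describes the list and tests nothing about it. COL1A1, a chain of type I collagen, averaged 1644 ± 15.2 CPM with STINGX and TGFb, 6367 ± 121 CPM with TGFb and 2307 ± 16.4 CPM in control (SD, n = 4 each). It was thus lower than control with STINGX and TGFb (log2 -0.49, edgeR adjusted p = 6.37e-09), where FN1 was 3.07-fold higher. FBLN2, a matrix glycoprotein that binds fibronectin, fell by 2.14 on the log2 scale with STINGX and TGFb against TGFb (edgeR adjusted p = 3.99e-11). VCAN, a large proteoglycan, was 1.77 above control on the log2 scale with STINGX and TGFb (adjusted p = 7.38e-09).

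Of 20 genes of adhesions and fibril assembly, 11 rose and 2 fell with TGFb against control (median log2 0.28). With STINGX and TGFb 0 rose and 12 fell against TGFb (-0.32), and 8 rose and 7 fell against control (0.13). The shares called were 65%, 60% and 75%, against 26%, 27.5% and 34.2% of all genes. Scaled by library size alone, 1 of them rose and 8 fell with STINGX and TGFb against TGFb, and 11 rose and 6 fell against control. All genes then split into 4997 higher and 1890 lower against TGFb, and 4683 higher and 2876 lower against control. For the count of 0, edgeR at an unadjusted p under 0.05, DESeq2 and limma-voom also gave 0 higher against TGFb. Of all genes, DESeq2 called 3142 higher and 3218 lower in that comparison, and limma-voom 2855 and 2838. The share of all genes at the unadjusted threshold is not given, here or for the lists below. TNS1, a tensin of the fibrillar adhesions where fibronectin is assembled, rose with TGFb (log2 1.90, edgeR adjusted p = 1.45e-12) and fell with STINGX and TGFb against TGFb (-1.29, adjusted p = 5.57e-11). TGM2, a transglutaminase that crosslinks fibronectin, was lower with TGFb than in control (-0.79, edgeR adjusted p = 7.88e-07) and lower still with STINGX and TGFb against TGFb (-1.0, adjusted p = 1.17e-07).

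Of 18 proteases and inhibitors, 8 rose and 3 fell with TGFb against control (median log2 0.12), 4 rose and 9 fell with STINGX and TGFb against TGFb (-0.46), and 6 rose and 3 fell against control (0.08). Those called made up 61.1%, 72.2% and 50% of the list, against 26%, 27.5% and 34.2% of all genes. MMP1, a collagenase, averaged 1407 ± 14.2 CPM with STINGX and TGFb, 63.1 ± 2.41 CPM with TGFb and 545.6 ± 33.2 CPM in control (SD, n = 4 each), lowest in the group where FN1 was highest.

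Among 20 splicing factors linked to the FN1 exons, 18 were tested, and changes were small. With TGFb against control 3 rose (TRA2B, QKI and SRPK1) and 0 fell, with STINGX and TGFb against TGFb 0 rose and 6 fell, and against control 2 rose and 5 fell, at medians of 0.04, -0.10 and -0.09. The shares called in either direction were 16.7%, 33.3% and 38.9%, below or near the 26%, 27.5% and 34.2% of all genes. By direction, 13.2% of all genes rose and 12.8% fell in the first comparison. These shares were 13.7% and 13.8% in the second and 17.2% and 17% in the third. The 33.3% of the list called in the second comparison were all falls. Scaled by library size alone, 1 rose and 2 fell, 1 rose and 3 fell, and 3 rose and 3 fell, while the median log2 change of all genes was -0.07, 0.15 and 0.08. All genes then split into 2224 higher and 3523 lower, 4997 and 1890, and 4683 and 2876. At an unadjusted p under 0.05, edgeR had 1 lower with TGFb against control and 0 higher with STINGX and TGFb against TGFb. DESeq2 gave 1 and 0 there, and limma-voom 0 and 0. Of all genes, DESeq2 called 2999 lower in the first of these comparisons and 3142 higher in the second. The matching counts with limma-voom were 2560 and 2855. The call of QKI (log2 0.23, edgeR adjusted p = 0.0276) was lost without control replicate 1 or 3 and without TGFb replicate 1, 2 or 3, with an adjusted p of up to 0.0866. HNRNPA2B1 fell most with STINGX and TGFb against TGFb (log2 -0.56, edgeR adjusted p = 2.83e-07). SRSF1, the protein named with GAAGAAGA above, averaged 146.4 ± 5.77, 172.2 ± 12.6 and 160.8 ± 22.5 CPM and passed in no comparison.

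Of 26 transcription factors linked to FN1, 8 rose and 5 fell with TGFb against control (median log2 0.21), 3 rose and 6 fell with STINGX and TGFb against TGFb (-0.04), and 10 rose and 5 fell against control (0.16). Those called made up 50%, 34.6% and 57.7% of the list, against 26%, 27.5% and 34.2% of all genes, so the second share lay near that of the whole table. Scaled by library size alone, 4 rose and 4 fell with STINGX and TGFb against TGFb, where 4997 of all genes were higher and 1890 lower. SNAI1, a repressor of epithelial genes, averaged 9.61 ± 0.538 CPM with STINGX and TGFb, 24.0 ± 0.959 CPM with TGFb and 4.05 ± 0.574 CPM in control (SD, n = 4 each), in the order of FN1. SMAD3, a carrier of the TGF-beta signal, was lower in RNA with TGFb than in control (log2 -0.99, edgeR adjusted p = 5.85e-10) and with STINGX and TGFb than in control (-1.16, adjusted p = 2.64e-10).

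The genes whose profile was most like that of FN1 were found among 8136 genes with a mean of at least 20 CPM and a symbol, over the 12 libraries. By Pearson r of log2 CPM they were VCAN (r = 0.9963), MSN, SPOCK1, EDN1, ST6GALNAC5 and EFNB2, and 22 genes reached r of 0.99. By the smallest root mean square difference from the FN1 profile, each centred on its control mean, they were VCAN (0.161), LRRC15 (0.175), SMAD7 (0.2), SLC46A3 (0.201), LMCD1 (0.205) and PODXL (0.269) on the log2 scale. VCAN led by both measures. It averaged 57.8 ± 5.88 CPM with STINGX and TGFb, 135.0 ± 10.2 CPM with TGFb and 16.9 ± 1.14 CPM in control (SD, n = 4 each). Its log2 changes of 3.00, -1.22 and 1.77 stood beside those of FN1 at 2.84, -1.22 and 1.62. MSN followed the same order with smaller changes, at 0.57, -0.22 and 0.36, and EDN1 with larger ones, at 3.98, -1.61 and 2.37. These likenesses are descriptions across 12 libraries of 3 groups, and genes that differ between the groups in one order share much of their r through the groups alone.

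**Figure D5:**
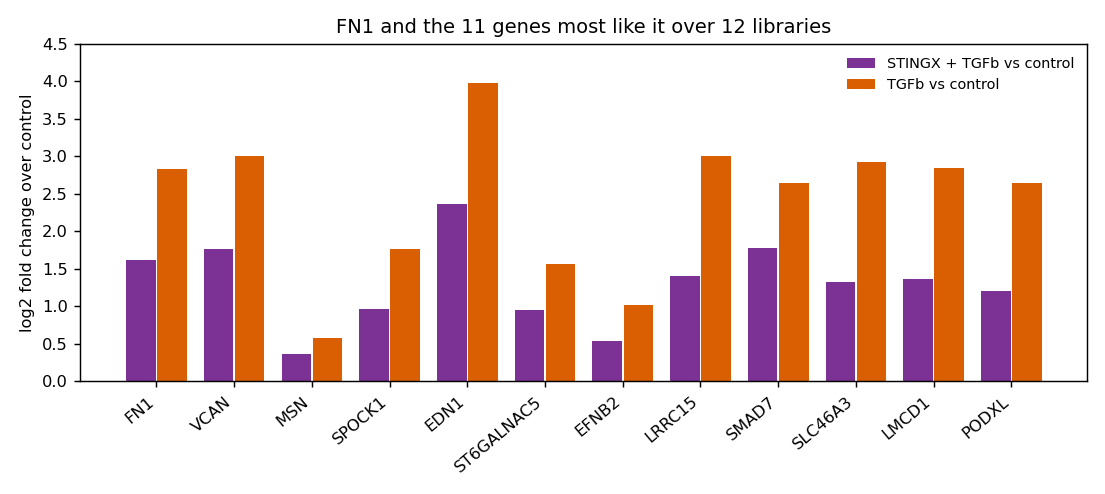
Log2 fold change over control with STINGX and TGFb (left bar of each pair) and with TGFb (right bar) for FN1 and the 11 genes most like it, without error bars. FN1 stands at 1.62 and 2.84, VCAN at 1.77 and 3.00, and in all 12 genes the bar with STINGX and TGFb is the lower. That order is part of the likeness to FN1 by which the 11 genes were chosen.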

How the data were processed

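Polyadenylated RNA of 12 LX2 libraries, 4 per group, was measured. Estimated counts per gene and per transcript and a table of FPKM values were deposited by the authors. The submitters' processing notes name cutadapt, HISAT2, StringTie and edgeR and the build GRCh38, without versions. Which annotation release was used, and whether counting used strand, is not given in the sources used here. Exon content from GENCODE 29 may therefore differ in detail. The estimated counts, whole in every cell, were tested as deposited. The deposited FPKM reads 0.0001 where a gene has no count.

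Gene and transcript tests used edgeR 4.0.16 (R 4.3.3). Features passing filterByExpr, with a minimum count of 10 and a total of 15, were scaled by TMM and tested with the quasi-likelihood F test over all 12 libraries. P-values were adjusted by Benjamini-Hochberg over the whole table, with 0.05 as the threshold. Usage was tested with diffSpliceDGE. Shares were compared with two-sided exact permutation tests. CPM uses TMM library sizes. The steps were run on simulated counts that spread less than the data. The common dispersion of the data was 0.078 for genes and 0.949 for transcripts. That run therefore does not show how the tests perform at the spread of these data. Alternatives were DESeq2 1.42.0, limma 3.58.1, other scalings, filters and FPKM, a replicate block and leaving out each library. Same-numbered libraries did not deviate together (correlations of -0.0383 to 0.0452 in 12 pairs), so they were not treated as pairs. Every pair of replicates differed by more than counting noise.

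The gene, its transcripts and the 6 gene lists were chosen with earlier results of these data known. Transcripts with a mean share of at least 1% in any group were described one by one. List genes were named from the 3 largest called rises and 3 largest called falls among those averaging 5 CPM or more, and ITGA5, ITGB1 and COL1A1 always; not every gene so chosen is reported here. Likeness named 6 genes by each measure.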

Additional observations from a re-analysis of the deposited data

Results flagged for a closer look

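In each group of 4 libraries the highest and the lowest value was compared with the nearest other value. A gap above Dixon's 95% critical value for 4 values, as a share of the whole range, marked a value as standing apart, which chance gives in about 1 of 20 groups. Of 66 groups examined, 19 held such a value. The 66 are not separate, because the shares of a library add up to a fixed total and the sums are made of the same transcripts. Of the 19, 16 were STINGX with TGFb replicate 1, and these are linked shares of 1 library, not 16 separate events.

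In that library the share of FN1 counts was 8.82% for FN1-204, against 52.3 to 53.7% in the other 3. It was 18.1% for FN1-206 (4.28 to 5.67% in the others), 11% for FN1-201 (6.23 to 6.47%), 8.40% for FN1-212 (3.62 to 4.04%) and 9.59% for FN1-202 (3.63 to 4.21%). It was 6.09% for FN1-203 (2.30 to 2.72%), 6.04% for FN1-211 (1.22 to 1.47%), 4.69% for FN1-205 (1.11 to 1.35%) and 4.29% for FN1-207 (0.776 to 1.03%). Of its end-to-end counts, 69.0% included EDA, 22.3% EDB and 22.2% both, against 27.2 to 28.6%, 11 to 11.6% and 10.9 to 11.5% in the others. The whole V region was kept in 42.8% (76.5 to 78.7%), its first part in 77.4% (91.8 to 92.9%), no V region in 6.2% (1.47 to 1.80%), and the long 3′ end in 69.7% (25 to 26.8%). FN1 as a gene did not stand apart there, at 6543 CPM.

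The other 3 were the FN1 FPKM of STINGX with TGFb replicate 2, at 324 (334 to 335 in the others), the share of FN1-224 in TGFb replicate 4, at 4.84% (4.34 to 4.42%), and the long 3′ end in TGFb replicate 3, at 26.1% (24.2 to 24.5%).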

How the results depend on the processing

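The FN1 gene kept its direction and passed in each of 24 alternatives (12 settings and 12 single libraries left out), at log2 2.76 to 2.84 for TGFb over control, -1.23 to -1.08 for STINGX and TGFb over TGFb and 1.57 to 1.70 for STINGX and TGFb over control, with a highest adjusted p of 1.28e-08. Counts of called FN1 transcripts depended more on the method. For STINGX and TGFb over TGFb they were 6, but 10 with DESeq2, and 4 to 7 with 1 library left out. DESeq2 also called more of the whole table there, 5409 transcripts against 1916 with edgeR. For STINGX and TGFb over control the FN1 counts were 9, but 5 with the replicate block, and 7 to 9 with 1 library left out. For TGFb over control they were 12, and 11 to 14 with 1 library left out. The usage call of FN1-209 with TGFb over control gave 1, but 0 with limma diffSplice, 0 with the replicate block, and 0 to 1 with 1 library left out. For STINGX and TGFb over TGFb limma diffSplice called 1, where edgeR called 0. The replicate numbers mark no shared culture in the labels, and 5 of 12 libraries had their closest library of another group under the same number. With the replicate block 11 and 4 transcripts were called in the other 2 comparisons, against 12 and 6 without it.

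Dividing each transcript's counts by its length, an alternative chosen after seeing the data, gave shares with TGFb of 25.1% for EDA, 9.02% for EDB, 8.98% for both and 23.2% for the long 3′ end. End-to-end transcripts then held 59.2% of FN1 with STINGX and TGFb, 56.0% with TGFb and 52.2% in control, and retained-intron transcripts 5.97%, 6.59% and 5.19%. For both of these shares the libraries with STINGX and TGFb then overlapped those with TGFb. Of the 12 places in the likeness lists, 6 were shared when log2(FPKM + 1) replaced log2 CPM. The cause was not tested. Depth left FN1-217, FN1-221 and FN1-223, with 0 to 19 counts, below the filter, and its part in the other values was not tested.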
